A study of Mus musculus with 4 samples.

Results

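The genes described here encode the molecules by which cells show peptides to T cells and by which leukocytes are called and instructed: the major histocompatibility complex (MHC) proteins of the mouse H2 region, the chemokines and interleukins, and their receptors. Members were taken by name. A probe set, the group of short oligonucleotides that reports 1 transcript on the array, belonged to the group if its only gene symbol began with H2-, or with Ccl, Ccr, Cxcl, Cxcr or Il followed by a digit. Of the 12488 probe sets on the array, 132 met this rule, and they name 108 of the 8251 genes that have a probe set of their own. By role they comprised 24 probe sets for MHC class I heavy chains, 11 for MHC class II chains, 3 with other H2 symbols, 15 for CC chemokine ligands, 11 for CXC ligands, 13 for chemokine receptors, 27 for interleukins and 28 for interleukin receptor chains. A further 17 probe sets carry a member's symbol together with other symbols and are outside the rule.

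RNA came from mouse skeletal muscle and was hybridised to 4 arrays. The titles code 2 arrays as J (replicates 1a and 1c) and 2 as NJ (replicates 1a and 1d), all at 0 h and all marked Ctr. The title of the series names the neuromuscular junction, where motor nerve and muscle fibre meet. What J and NJ stand for is not spelled out. The sources used here do not give strain, age, muscle, dissection or number of animals, so the spread between the arrays of a group may be technical. J 1c stood apart in the summed deposited intensities of 16 muscle fibre markers. They were 1513155 on J 1a and 250680 on J 1c, versus 1176272 on NJ 1a and 850998 on NJ 1d. The brightest markers carry this sum, and not every marker was low on J 1c. Myh4 had 18239 on J 1c and 113890 on NJ 1d, but Tnni2 had 8936 and 8981. After the quantile normalisation described below, J 1c minus NJ 1d was −2.14 for Myh4, 0 for Myh1 and 0.24 for Tnni2. The median over the 15 tested markers was −0.73. In a bulk sample, fewer cells of a type and less RNA per cell cannot be told apart.

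MHC class I molecules consist of a polymorphic heavy chain and beta-2 microglobulin and present peptides made inside the cell to CD8 T cells. Nearly all nucleated cells make them, although resting muscle fibres are known for making little. Class II molecules pair an alpha with a beta chain, present peptides from ingested material to CD4 T cells and are mainly a property of dendritic cells, macrophages and B cells. Chemokines draw leukocytes along gradients through G protein-coupled receptors, and many interleukins, though not all, signal through receptor chains coupled to Janus kinases and STAT factors. Several interleukin receptor chains, among them the shared chain gp130, are made by most tissues.

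Class I genes are known to be controlled through a short enhancer next to the promoter, so the 200 bases before the transcription start are shown first for H2-K1, H2-D1 and H2-M3. These are the 3 class I genes with a probe set above background on all 4 arrays, as described further on. H2-Eb1, the class II gene with such a probe set, and H2-Aa, a class II gene without one, follow for comparison. The sequences are from RefSeq on the build GRCm38.p6, run 5′ to 3′ along the gene, and end just before the start. The data at hand measure transcripts and not binding at these sequences. Capitals mark 4 short motifs searched on both strands: GATTCCCC, a part of the kappaB site of class I promoters, TTTCACTTC, a part of their interferon-stimulated response element, TGACG, the core of cAMP-response-like elements, and ATTGG, the CCAAT box. In H2-M3 the capitals of 1 more CCAAT box and of the kappaB letters are separated by 1 base.

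H2-K1, chr17:34000348-34000547, strand minus: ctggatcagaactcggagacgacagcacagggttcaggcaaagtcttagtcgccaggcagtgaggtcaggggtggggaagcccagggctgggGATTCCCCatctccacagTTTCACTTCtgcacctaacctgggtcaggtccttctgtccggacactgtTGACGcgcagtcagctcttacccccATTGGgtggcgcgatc
H2-D1, chr17:35262894-35263093, strand plus: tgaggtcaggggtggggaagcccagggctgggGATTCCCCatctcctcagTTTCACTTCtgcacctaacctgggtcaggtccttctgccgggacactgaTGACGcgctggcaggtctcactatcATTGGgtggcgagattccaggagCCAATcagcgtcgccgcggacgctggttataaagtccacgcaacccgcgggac
H2-M3, chr17:37270034-37270233, strand plus: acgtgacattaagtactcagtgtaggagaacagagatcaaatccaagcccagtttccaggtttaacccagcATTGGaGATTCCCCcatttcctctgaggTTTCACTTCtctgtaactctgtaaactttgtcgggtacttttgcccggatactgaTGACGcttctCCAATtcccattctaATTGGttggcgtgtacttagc
H2-Eb1, chr17:34305667-34305866, strand plus: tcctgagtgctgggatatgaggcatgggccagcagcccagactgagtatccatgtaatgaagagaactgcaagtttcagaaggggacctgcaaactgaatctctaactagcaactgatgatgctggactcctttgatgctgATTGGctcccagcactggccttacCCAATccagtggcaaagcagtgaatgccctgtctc
H2-Aa, chr17:34287824-34288023, strand minus: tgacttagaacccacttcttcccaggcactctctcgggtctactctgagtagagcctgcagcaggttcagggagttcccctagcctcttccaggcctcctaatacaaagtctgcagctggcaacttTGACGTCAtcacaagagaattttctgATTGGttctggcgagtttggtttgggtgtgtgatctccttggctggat

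In the 3 class I genes the kappaB letters came first, then those of the interferon element, then the cAMP-like core and then a CCAAT box, although H2-M3 also had a CCAAT box before the kappaB letters. In H2-K1 the kappaB letters began 108 bases and the interferon letters 90 bases before the start, in H2-D1 168 and 150 bases, and in H2-M3 123 and 101 bases. H2-K1 has 2 annotated starts, of which the first listed is shown. The H2-Eb1 sequence held ATTGG on both strands and none of the other motifs, and that of H2-Aa held ATTGG and TGACG, the latter on both strands in overlapping positions. Within 250 bases before the start, GATTCCCC occurred in 0.877% of the 27025 gene symbols with an upstream sequence, TTTCACTTC in 0.477%, TGACG in 19.8% and ATTGG in 37.5%. All 4 motifs together occurred in 4 genes of the 27025: H2-D1, H2-K1, H2-M3 and the predicted gene Gm31814. The letters were spelled from the class I sequences shown, so this count describes a shared layout and is no independent test of it.

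Upstream sequence was held for 81 of the 108 member genes. Of 9 class I genes with one, 3 held GATTCCCC, 5 held TTTCACTTC (H2-Q4 and H2-Q10 besides those shown), 6 held TGACG and 8 held ATTGG. Of 8 class II genes, 0 held GATTCCCC or TTTCACTTC, 1 held TGACG and 8 held ATTGG. Sequence was held for 9 CC ligand, 7 CXC ligand, 11 chemokine receptor, 19 interleukin and 17 interleukin receptor genes. Of these, 0 held GATTCCCC or TTTCACTTC. Both motifs are rare over all genes (0.877% and 0.477%), so 0 in so few genes does not set them apart. The letters were spelled from class I sequences, and other spellings of kappaB or interferon elements were not searched. A match describes letters and shows neither binding nor use of a site.

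Signal above background was rare among these genes. The table gives no detection call, so background was set from 164 probe sets of 131 genes of retina, lens, germ cells, pancreas, pituitary, mammary gland, liver and other organs, which skeletal muscle is not known to express. The 90th percentile of their intensities on an array was taken as its background level. That level was 869 on J 1a, 774 on J 1c, 815 on NJ 1a and 667 on NJ 1d. Intensities are the deposited values on a linear scale in arbitrary units, and a level of 1 probe set cannot be set against that of another. Of the 132 member probe sets, 7 (5.30%) were above background on all 4 arrays, 19 on some and 106 (80.3%) on none. Of the 10833 probe sets with a single symbol, 19.7% were above it on all 4 arrays. Array by array, 12.9% of the members lay above background on J 1a, 9.09% on J 1c, 10.6% on NJ 1a and 15.2% on NJ 1d. The shares over all single-symbol probe sets were 28%, 29.8%, 29.6% and 32.2%. By construction, the top of the background list itself lies above the level on each array, so passing on 1 array does not show expression. The share of that list above it on all 4 arrays is not given here. The members above it on all arrays were 1 probe set each of H2-K1, H2-D1, H2-M3, H2-Eb1, Il27ra, Il10rb and Il6st.

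At this level the classes gave the following counts. Class I had 3 of 24 (12.5%) above background on all 4 arrays and 8 on some, and class II 1 of 11 (9.09%) and 2 on some. Receptor chains of interleukins had 3 of 28 (10.7%). Chemokine receptors had 0 of 13, CC ligands 0 of 15, CXC ligands 0 of 11 and interleukins 0 of 27, and none of the interleukins was above it on any array. As a whole, chemokine and interleukin ligands had 0 of 53 and their receptors 3 of 41 (7.32%). The counts per array overlapped between J and NJ: 17 members lay above background on J 1a and 12 on J 1c, against 14 on NJ 1a and 20 on NJ 1d. The counts depend on where background is set. They were 21 with the 75th percentile of the same list, 3 with the 95th, 30 with the level of 15 bacterial control probe sets and 34 with a fixed intensity of 200. The shares over all single-symbol probe sets were then 33.4%, 12.3%, 41.5% and 44.5%, each above the share of the members, at 15.9%, 2.27%, 22.7% and 25.8%. H2-K1, Il27ra and Il6st passed at every one of these levels. The order of the classes was not fixed either. With bacterial controls, class I had 41.7% of its probe sets above the level on all arrays, CXC ligands 36.4%, interleukin receptors 28.6%, class II 27.3%, chemokine receptors 15.4%, CC ligands 6.67% and interleukins 3.70%. With the fixed level of 200, CXC ligands were again at 36.4% and interleukin receptors at 28.6%, with class I at 54.2% and class II at 45.5%.

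**Figure D1:**
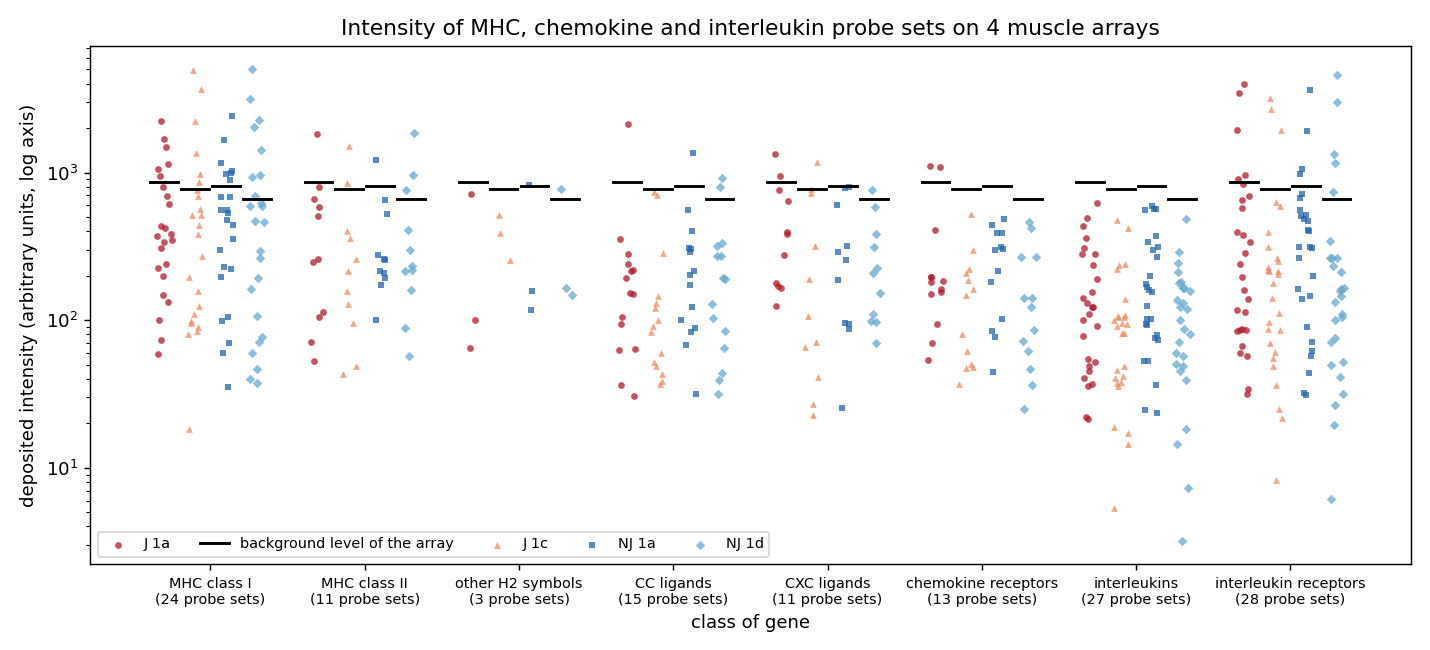
Deposited intensity (log axis, arbitrary units) of every member probe set by class, 1 point per probe set and array, with a black bar at each array's background level. All 27 interleukin probe sets lie below the bars on all 4 arrays, and the 7 members above the bars on all arrays belong to class I, class II and interleukin receptor genes. The CC ligand Ccl22 reaches 2140 on J 1a but lies below the bar on J 1c.

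Among classical class I heavy chains, H2-K1 had intensities of 1688 and 4941 in J and 2420 and 4995 in NJ at its probe set above background. The arrays 1c and 1d were high and both 1a arrays low, and J and NJ overlapped. J minus NJ was −0.25 ± 0.54 (standard error, n = 2 arrays per group) on the log2(intensity + 32) scale after quantile normalisation, the scale of all differences below. Other probe sets of H2-K1 had 100.3 and 197 in J versus 99.0 and 592 in NJ, and 133 and 383 against 562 and 162, and lay above background on none. H2-D1 had 950 and 1364 in J versus 1667 and 1421 in NJ, with both J arrays below both NJ arrays, a difference of −0.50 ± 0.45. A second H2-D1 probe set had 614 and 2249 in J versus 982 and 3142 in NJ. It was above background on all arrays but J 1a, and differed by −0.62 ± 0.71 between overlapping groups. The third H2-D1 probe set had 421 and 440 in J versus 301 and 470 in NJ, below background throughout. Probe sets of 1 gene thus differed in whether they passed background. By its design, the array names 12 of the 24 class I probe sets (50%) with the suffix f, which marks probes shared by members of a sequence family, against 7.93% of all single-symbol probe sets. A signal at such a probe set can come from any of several class I genes.

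Among the non-classical class I genes, whose products have narrower tasks, H2-M3 presents peptides that begin with N-formyl methionine. It had 2219 and 978 in J versus 1025 and 965 in NJ at the probe set above background. J 1a was high and the other arrays lay close together, and the difference of 0.57 ± 0.52 was −0.049 without J 1a. H2-T18, which encodes the thymus leukemia antigen, had 310 and 3685 in J versus 534 and 2265 in NJ and was above background on J 1c and NJ 1d only. Its contrast lay between the 1a arrays and the others and not between J and NJ, which differed by −0.10 ± 1.06. H2-K2 had 225 and 274 in J versus 228 and 2042 in NJ. Its difference of −1.34 ± 1.01 rested on NJ 1d and was 0.23 without it. H2-M9 had 1496 and 764 in J versus 1161 and 597 in NJ, and H2-Bl 1064 and 518 against 989 and 622, both above background on the 1a arrays only. H2-M2 had 1148 and 695 in J versus 684 and 935 in NJ. H2-Q10, known as a secreted class I molecule of liver, had 433 and 563 in J versus 685 and 696 in NJ, above background on NJ 1d alone. The other class I probe sets were those of H2-D4, H2-M1, H2-M10.1, H2-Q1, H2-Q4, H2-Q5 and H2-T24 and the dimmer one of H2-M3. They were above background on no array, except that 1 of 3 probe sets of H2-M10.1 was above it on J 1c and NJ 1a.

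The partner of these chains, beta-2 microglobulin (B2m), was above background on all arrays, with 1801 and 2909 in J versus 1356 and 2362 in NJ. The groups overlapped, and the difference was 0.33 ± 0.44. Of 11 measured genes of class I assembly and peptide supply, B2m, the chaperone calnexin (Canx) and the immunoproteasome subunit Psmb10 were above background on all arrays. Psmb10 had 1252 and 994 in J versus 1832 and 1388 in NJ, with both J arrays lower and a difference of −0.56 ± 0.44. Psmb8, another such subunit, had 636 and 454 in J versus 64.2 and 512 in NJ, all below background. Its difference of 1.33 ± 0.98 was −0.076 without NJ 1a. Of the 9 tested, 6 were higher and 3 lower in J, with 0 passing limma after adjustment over all probe sets and a median of 0.16.

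**Figure D2:**
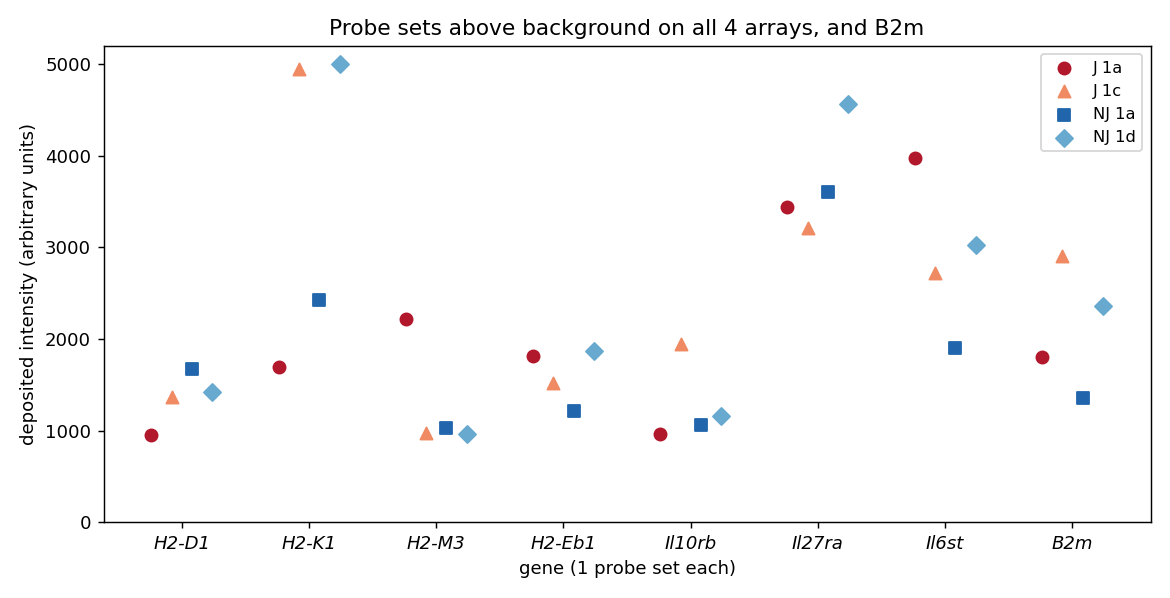
Deposited intensity (linear axis, arbitrary units) on each array for the 7 member probe sets above background on all 4 arrays, and for B2m. H2-K1 and B2m are high on J 1c and NJ 1d and lower on both 1a arrays, while for Il27ra and H2-D1 both J points lie below both NJ points.

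For class II, the chain with signal above background was the beta chain H2-Eb1, with 1815 and 1516 in J versus 1212 and 1866 in NJ. The groups overlapped, and the difference was 0.13 ± 0.44. Its partner alpha chain H2-Ea had 114 and 158 in J versus 194 and 57.2 in NJ, below background on every array. The other classical pair was below background throughout as well. H2-Aa had 582 and 95.8 in J versus 172 and 219 in NJ, and H2-Ab1 had 659 and 129 in J versus 210.3 and 405 in NJ. Both were highest on J 1a and lowest on J 1c, so their differences of 0.29 ± 0.91 and 0.06 ± 0.90 joined values of opposite sign: 1.64 and 1.58 for the 1a pair, and −1.06 and −1.46 for J 1c with NJ 1d. That of H2-Ab1 was −0.027 with each array centred on its median.

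The chains that load class II molecules with peptide were near or below background. H2-DMa, the alpha chain of the loading factor DM, had 505 and 847 in J versus 520 and 962 in NJ at 1 probe set, above background on J 1c and NJ 1d. Its other probe set had 247 and 259 against 655 and 234. H2-DMb1, a beta chain of DM, had 260 and 217 in J versus 258 and 215 in NJ, nearly the same values in both groups. H2-Oa, a chain of the DM inhibitor DO, had 798 and 363 in J versus 275 and 759 in NJ, above background on NJ 1d alone. H2-DMb2, H2-Ob and H2-Eb2 were below background on all arrays. The invariant chain Cd74, which escorts new class II molecules, had 849 and 583 in J versus 516 and 737 in NJ, above background on NJ 1d alone, and differed by 0.18 ± 0.59. Of 9 measured genes of class II expression and processing, Rfxank, a subunit of the factor that binds class II promoters, was above background on all arrays. Of 8 tested, 5 were higher and 3 lower in J (median 0.22) with 0 passing, and those with the smallest unadjusted p were the protease Lgmn and the co-stimulatory receptor Cd40. Lgmn had 1057 and 730 in J versus 319 and 554 in NJ, a difference of 1.03 ± 0.64. Cd40 had 174 and 49.7 in J versus 299.6 and 232 in NJ, all below background.

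The probe sets with other H2 symbols were H2-Ke6, a gene of the region that encodes a hydroxysteroid dehydrogenase, and H2-Pa. H2-Ke6 had 719 and 514 in J versus 828 and 777 in NJ at its s probe set, with both J arrays below background and both NJ arrays above it. The difference was −0.41 ± 0.55 (limma, unadjusted p = 0.478, adjusted p = 0.999). Set against the background level of the J arrays, NJ was 1.003-fold higher. This bound depends on where background is set and is not a tested minimum. The other H2-Ke6 probe set had 99.8 and 257 in J versus 117 and 164.5 in NJ. It was above background on no array and differed by 0.11 ± 0.84 between overlapping groups. H2-Pa was below background on all arrays.

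CC chemokine ligands gave no probe set above background on all arrays. Ccl22, which draws T cells that carry Ccr4, came nearest, with 2140 and 739 in J versus 1357 and 793 in NJ. Both 1a arrays were high, J 1c fell just under its background level, and the groups overlapped, with a difference of 0.26 ± 0.59 that was −0.51 without J 1a. Ccl1 gave the smallest unadjusted p of all members. Its values were 94.6 and 83.2 in J versus 554 and 274 in NJ, both J arrays below both NJ arrays, but all below background. The fitted difference was −1.92 ± 0.78 (limma, unadjusted p = 0.034, adjusted p = 0.999 over all probe sets). The other probe set of Ccl1 had 193 and 704 in J versus 216 and 923 in NJ, with NJ 1d above background and a difference of −0.29 ± 0.96. Ccl9 (62.9 and 92.0 in J, 304 and 189 in NJ) and Ccl6 (214 and 100.3 in J, 400 and 321 in NJ) also had both J arrays below both NJ arrays and all values below background. The ligands of monocyte and T cell traffic Ccl2, Ccl3, Ccl4, Ccl5, Ccl7, Ccl8, Ccl11, Ccl12, Ccl17 and Ccl25 were below background on every array.

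Of the CXC ligands, Cxcl12, which retains stem cells and lymphocytes in tissue and is made by stroma, had 1339 and 1171 in J versus 802 and 766 in NJ at its brightest probe set. J exceeded NJ on both arrays, background was passed on all but NJ 1a, and the difference was 0.61 ± 0.48 (limma, unadjusted p = 0.230, adjusted p = 0.999). It stayed between 0.52 and 0.69 with each array left out. The other probe sets of Cxcl12 differed by 0.25 ± 0.54 (952 and 731 in J, 786 and 582 in NJ) and 0.04 ± 0.69 (386 and 770 in J, 599 and 387 in NJ), each with overlapping groups. Cxcl9, an interferon-induced ligand, had 165 and 27.1 in J versus 320 and 152 in NJ, all below background. Cxcl1, Cxcl2, Cxcl5, Cxcl10, Cxcl13 and Cxcl14 were below background on every array. At 1 of 2 probe sets of Cxcl1, a neutrophil attractant, J 1a had 645 against 69.6 to 95.6 on the other arrays.

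Chemokine receptors were above background on J 1a at 2 probe sets and on no other array. Cxcr3, the receptor for Cxcl9 and Cxcl10 on activated T cells, had 1096 and 301 in J versus 181 and 124 in NJ. Both J arrays were higher, and the difference was 1.77 ± 0.83 (limma, unadjusted p = 0.059, adjusted p = 0.999), with 2.56 for the 1a pair, 0.99 for J 1c with NJ 1d and 0.97 to 2.53 with each array left out. Ccr1l1, a relative of Ccr1, had 1104 and 526 in J versus 443 and 423 in NJ and differed by 0.78 ± 0.63. Ccr9, a gut-homing receptor, had 93.7 and 210.1 in J versus 393 and 268 in NJ. Cxcr4, the receptor for Cxcl12, had 182 and 36.9 in J versus 44.7 and 86.1 in NJ, below background on all arrays and too dim to test. Outside the naming rule of the members, the fractalkine receptor Cx3cr1 of monocytes had 231 and 1050 in J versus 1400 and 1094 in NJ, a difference of −1.40 ± 0.74 that was −0.28 without J 1a. The decoy receptor family member Ccrl2 had 191 and 717 against 867 and 929, −1.28 ± 0.75. These 2 had the smallest p of 10 measured genes with other chemokine names (the member Ccr1l1 among them), of which 5 were higher and 4 lower in J and 0 passed.

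Interleukins were below background at all 27 probe sets. The highest interleukin value on each array was that of Il16, a chemoattractant for CD4 cells cut from a larger precursor, with 622 and 479 in J versus 596 and 485 in NJ. J and NJ were alike there, with a difference of −0.03 ± 0.61, and Il16 is the interleukin that passed the lower background levels on all 4 arrays. The pro-inflammatory cytokines Il1a, Il1b and Il6 and the T cell cytokines Il2, Il4, Il5, Il10, Il13 and Il17a stayed below background throughout. Il6, which contracting muscle is known to release, lay between 18.9 on J 1c and 138 on NJ 1d. Il15, a growth factor for natural killer cells that muscle is also known to make, had 40.4 and 106 in J versus 73.7 and 86.6 in NJ. Il12a had 49.0 and 81.5 in J versus 301 and 164 in NJ, and 1 probe set of Il4 had 123 and 140.0 against 554 and 182. For both probe sets each J array lay below each NJ array, at levels within background.

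Outside the MHC, the members above background on all arrays were interleukin receptor chains. Il27ra, the specific chain of the IL-27 receptor, had 3443 and 3210 in J versus 3601 and 4566 in NJ. Both J arrays were lower by a small margin, and the difference was −0.24 ± 0.36. Il6st encodes gp130, the signalling chain shared by the receptors for IL-6, IL-11, IL-27 and leukemia inhibitory factor. It had 3974 and 2716 in J versus 1906 and 3025 in NJ, with overlapping groups, and differed by 0.47 ± 0.42, with 1.12 for the 1a pair and −0.17 for J 1c with NJ 1d. Its second probe set was below background on all arrays. Il10rb, shared by receptors for IL-10, IL-22 and the lambda interferons, had 962 and 1949 in J versus 1063 and 1154 in NJ, and its difference of 0.24 ± 0.50 was −0.25 without J 1c. Il17ra, a receptor chain for the IL-17 family, had 910 and 628 in J versus 979 and 734 in NJ, above background on all arrays but J 1c. Il15ra, which presents IL-15 to neighbouring cells, had 1935 and 596 in J versus 714 and 1340 in NJ and was above background on J 1a and NJ 1d. The ligand-binding chain for IL-6, Il6ra, had 651 and 393 in J versus 263 and 262 in NJ, both J arrays higher but all below background. Il4ra had 139 and 206 in J versus 561 and 264 in NJ, also below background. The chains typical of lymphocytes, Il2ra, Il2rb, Il7r and Il12rb2, were below background on all arrays.

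J and NJ were compared with limma over all 9316 probe sets that were bright enough, which included 87 members. A further 43 members were too dim and 2 are controls of the array maker. After Benjamini-Hochberg adjustment 0 of the 87 passed a threshold of 0.05, as did 0 of all 9316 probe sets (0%), the smallest adjusted p of a member being 0.999, and 0 members passed without J 1c. Of the 46 named probe sets that were tested, 27 changed sign when 1 array was left out. With a term for the number format described next, 0 of 87 members passed, against 8 of 9316 probe sets (0.0859%). At an unadjusted p under 0.05, limma gave 0 members higher in J, where 1.26% of all probe sets were, and 1 lower, Ccl1, where 0.88% were. A p that misses the threshold does not show that the groups were alike: the standard errors of the members named here run from 0.36 to 1.06. With 2 arrays a group, 0.333 is the smallest two-sided p of an exact permutation test.

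Direction was counted on the normalised scale. Both J values lay below both NJ values for 19 of 87 members (21.8%) and above them for 9 (10.3%), against 12.8% and 13.6% of all probe sets tested. Of the 61 tested members above background on no array, 15 were below and 6 above. Of all 4409 tested probe sets that were likewise above background on none, 13.0% were below and 14.5% above. So 15 of the 19 members with J below NJ had no signal above background. Of the 7 members above it on all arrays, 2 were below (H2-D1 and Il27ra) and 0 above. The median difference was −0.17 over the 87 members and −0.01 over all probe sets.

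By class, the median of J minus NJ was −0.10 for class I (9 higher and 11 lower) and 0.06 for class II (5 higher and 4 lower). The class II median was −0.03 with each array centred on its median instead of quantile normalisation. CC ligands had a median of −0.36 (2 higher, 6 lower), CXC ligands 0.34 (6 higher, 2 lower) and chemokine receptors −0.47 (2 higher, 7 lower). Interleukins had a median of −0.15 (3 higher, 9 lower) and interleukin receptors −0.19 (8 higher, 10 lower). Between arrays of 1 group the class medians themselves had standard deviations of 0.20 to 0.42 in these classes, and the difference was larger than that spread for CC ligands and chemokine receptors alone among them. Neither median held with each array left out and the filter on dim probe sets applied anew: that of CC ligands was 0.057 without NJ 1d, and that of chemokine receptors −0.069 without NJ 1a. The classes of ligands and of receptors each held members on both sides of 0. Whether ligands and receptors differ in direction was not tested.

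**Figure D3:**
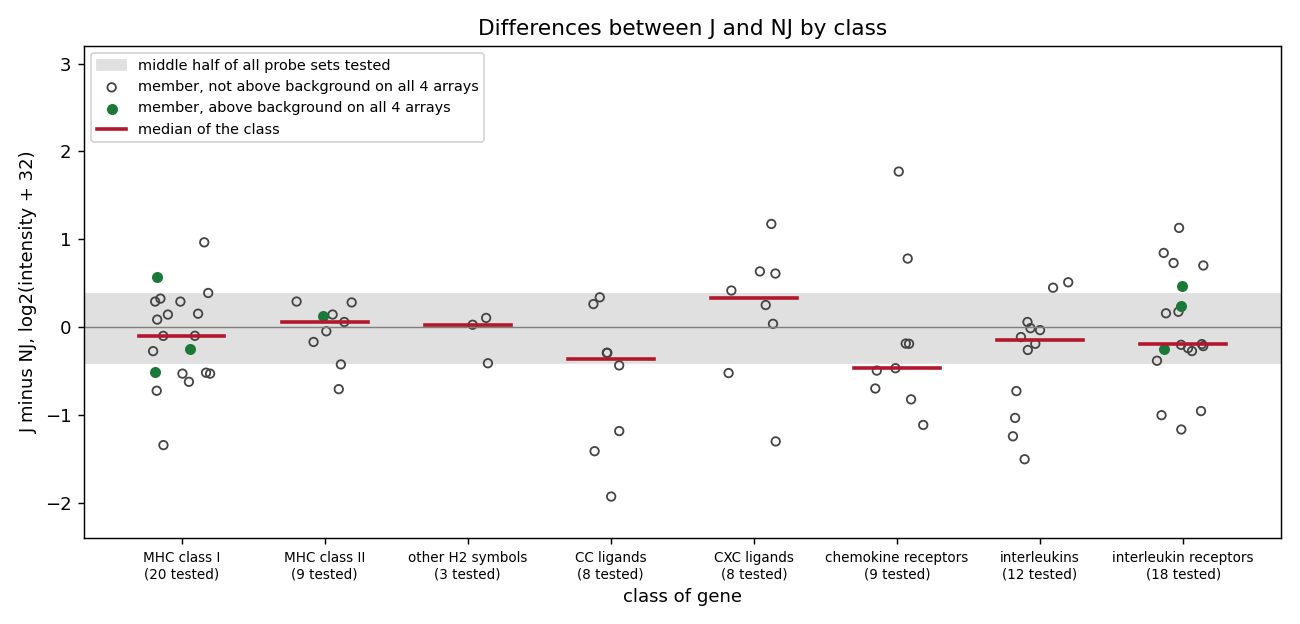
J minus NJ on the log2(intensity + 32) scale for the 87 tested members by class, with the median of each class as a red bar and the middle 50% of all probe sets tested as a grey band. The members above background on all 4 arrays (filled) lie between −0.50 and 0.57, and the larger differences belong to dimmer members (open).

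In the deposited table the values of J 1c and NJ 1d have 1 decimal and those of the 1a arrays have more digits, so each number format covers 1 J and 1 NJ array. The difference of the 1a arrays and that of J 1c and NJ 1d had opposite signs for 40 of 87 members (46.0%), against 50.5% of all probe sets tested. Both were negative for 33 members (37.9%) and both positive for 14 (16.1%), against 24.5% and 25% of all probe sets tested. Several class I probe sets split by format and not by group. The mean of J 1c and NJ 1d exceeded that of the 1a arrays by 2.82 for H2-T18. The excess was 1.73 for an H2-D1 probe set and 1.18 for the H2-K1 probe set above background. For H2-K2 it was 1.87, mainly through NJ 1d. The median of this difference was 0.04 over the tested class I probe sets and 0.03 over all probe sets tested. For H2-Bl, H2-M9 and Ccl22 that difference was −0.72, −0.87 and −1.11. Number format coincides with replicate label 1a against the others, so these cannot be told apart.

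**Figure D4:**
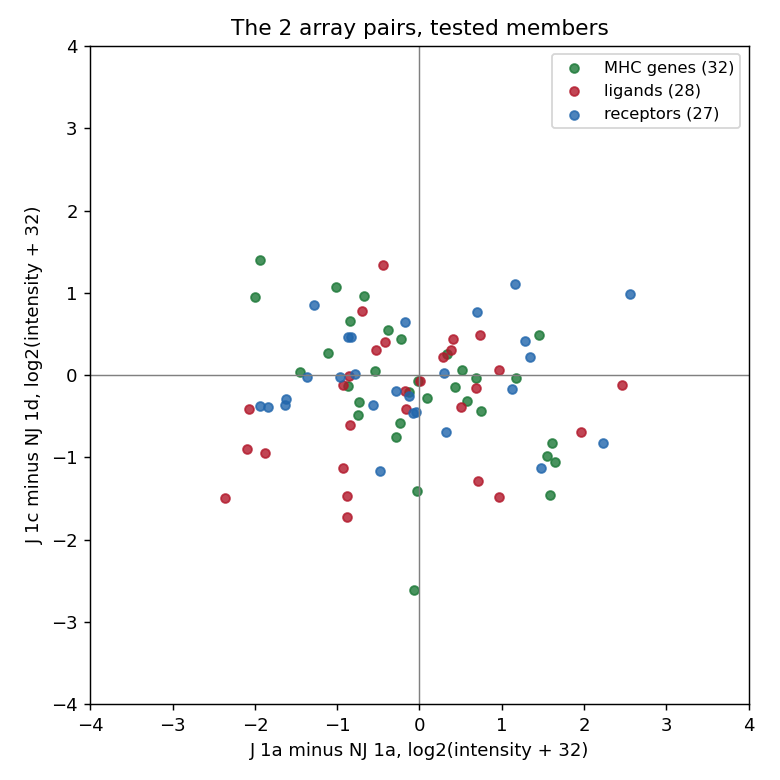
Difference of J 1a minus NJ 1a (horizontal) and J 1c minus NJ 1d (vertical) on the log2(intensity + 32) scale for each tested member. Points fill all 4 quadrants, with 40 of 87 in those of opposite sign, and the green points at the lower right include H2-Aa, H2-Ab1 and H2-Oa.

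Genes of interferon and cytokine signalling, ligands and receptors of other families among them, were counted from lists. Of 22 measured genes of the interferon pathway and response, 0 were above background on all arrays and 16 on none. Of 16 tested, 7 were higher and 9 lower in J (median −0.38) and 0 passed. Irf8, a transcription factor of myeloid and B cells, had 780 and 859 in J versus 121 and 91.3 in NJ, with both J arrays above both NJ arrays but J 1c alone above background, and differed by 2.56 ± 0.74 (limma, adjusted p = 0.999). Ifnar2, a chain of the type I interferon receptor, had 87.9 and 199 in J versus 450.0 and 453 in NJ, all below background. Interferon gamma itself (Ifng) was below background on all arrays. Of 31 measured genes of cytokine signalling, 7 were above background on all arrays: Stat3, Stat5a, Jak2, Rela, Nfkbia, Tnfrsf1a and Cish. Of 28 tested, 15 were higher and 13 lower (median 0.05) with 0 passing. The receptor for granulocyte colony-stimulating factor, Csf3r, had 1344 and 1230 in J versus 613 and 398 in NJ and differed by 1.24 ± 0.52 (limma, unadjusted p = 0.040, adjusted p = 0.999). Socs3, an inhibitor of gp130 signalling, had 777 and 411 in J versus 66.9 and 294 in NJ, below background on every array. It differed by 1.74 ± 0.90, and by 0.71 without NJ 1a.

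The tissue label and the cells that make most of these molecules were checked from marker lists. Of 16 muscle fibre markers 13 were above background on all arrays, J 1c included, although their sum there was the lowest, as given above. Of 25 myeloid markers 2 (Laptm5 and Cd14) were and 18 were on none, and 14 of 20 tested were higher and 6 lower in J (median 0.38). Their summed intensities were 15049 and 8705 in J versus 9620 and 7297 in NJ. Of 21 lymphocyte markers 0 were above background on all arrays and 18 on none, with sums of 6640 and 5810 in J versus 6890 and 5318 in NJ. The B cell markers Cd79a and Ms4a1 were above it on 3 arrays, but the B cell markers Cd79b, Cd22 and Blk were above it on no array. The leukocyte antigen Ptprc, the integrin Itgam and the T cell chain Cd3e were below background on each. Mast cell markers summed to 3868 and 3786 in J versus 3117 and 1742 in NJ, with 1 of 11 above background on all arrays, and endothelial markers to 13347 and 9596 against 11091 and 10570, with 3 of 10. Fibroblast markers summed to 111352 and 45620 in J versus 62225 and 53492 in NJ. Most of that sum was Dcn, with 82874 and 25304 in J versus 42425 and 36133 in NJ. After normalisation 8 of the 10 fibroblast markers were higher and 2 lower in J (median 0.36), with 0 passing. Motor axon markers summed to 8068 and 3657 in J versus 4775 and 4466 in NJ, and Schwann cell markers to 5897 and 5388 versus 6781 and 3841. J 1a thus had the highest sum for 6 of the 8 lists, muscle fibre included, all but the lymphocyte and Schwann cell lists. These sums are of deposited intensities and are not normalised. The median deposited intensity of all single-symbol probe sets was also highest on J 1a, with 390.7 and 319.7 in J versus 383.9 and 297.7 in NJ. Of the members above background on all arrays, H2-M3 and Il6st were likewise highest on J 1a, but the others were not. By deposited intensity H2-K1, H2-Eb1 and Il27ra were highest on NJ 1d, H2-D1 on NJ 1a and Il10rb on J 1c. After normalisation H2-K1 was highest on J 1c (12.235, against 12.186 on NJ 1d). H2-Eb1 was then nearly level on NJ 1d and J 1a (10.878 and 10.87). The part of cell composition in any of the values above was not tested.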

How the data were processed

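The sources used here do not give the software, algorithm or build behind the values. The authors deposited 1 linear intensity per probe set and array, and the 4 arrays' means after trimming 2% at each end lie close together, between 800.5 and 800.6. Gene symbols came from the platform's gene table, and all 108 member symbols occur in the RefSeq table of GRCm38.p6. Intensities were taken as log2(value + 32) and quantile normalised, because array medians ranged from 8.29 to 8.67. The 66 control probe sets were left out of the tests, as were probe sets whose mean lay at or below the 25th percentile, which left 9316.

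The test of J minus NJ was two-sided, by limma 3.58.1 (R 4.3.3; lmFit and trended eBayes) on 2 residual degrees of freedom, with Benjamini-Hochberg adjustment over all probe sets. The fit was tested on simulated data. Standard errors are those of this fit, and the precision is limited by the number of arrays. Several probe sets of 1 member gene were kept apart, whereas each listed gene was read at its brightest probe set. Upstream sequences (250 bases before the start) and figures were handled in Python 3.11.15 with matplotlib 3.10.9.

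Named are all MHC probe sets, members above background on all arrays, up to 3 members per other class with the largest difference among those above background in a group, the 10 members with the smallest p, and 2 genes per list. Others serve to give levels and were chosen after their values were seen, as were the motif letters. Alternatives were other scalings, pseudocounts, filters and background levels, no variance trend, a number format term, a mean per gene and each array left out. The members, lists, background rule and alternatives were chosen with earlier results of these data known.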

Additional observations from a re-analysis of the deposited data

How the results depend on the processing

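After Benjamini-Hochberg adjustment in limma, members passing stayed at 0 in every alternative fit, while probe sets passing numbered 0 to 4 on leaving out single arrays (4 without J 1a) and 8 with the number format term. Members above background on all 4 arrays numbered 21, 3, 30 and 34 at the other background levels (75th percentile, 95th percentile, bacterial controls, fixed intensity of 200). With the filter raised to the median intensity, the class median was −0.013 for CC ligands, 1.28 for chemokine receptors, 0.21 for interleukins and 0.18 for interleukin receptors. On leaving out single arrays, class medians ran from −0.16 to 0.18 for MHC class I, −0.35 to 0.31 for class II, −0.99 to 0.057 for CC ligands, 0.10 to 0.40 for CXC ligands, −0.50 to −0.069 for chemokine receptors, −0.33 to −0.062 for interleukins and −0.36 to 0.069 for interleukin receptors. The cause was not tested.

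Of the 46 named probe sets tested, 27 changed sign on leaving out single arrays and 19 kept their sign in every alternative that gave a value, the latter including Ccl1, Cxcr3, Cxcl12, Il27ra, Il6st and 1 probe set of H2-D1. For Ccl1, Cxcr3, Cxcl12, Il27ra and this H2-D1 probe set both J values lay beyond both NJ values. Leaving out 1 array then nearly fixes the sign, so a kept sign is no separate support. Over all alternatives 51 of 565 values were reversed. Among class I probe sets the ranges were −0.35 to 1.0015 (H2-M10.1), −1.21 to 0.72 (H2-M10.1), −0.17 to 0.46 (H2-M2), −0.16 to 0.73 (H2-M9), −0.57 to 0.35 (H2-Bl), −1.06 to 1.27 (H2-M3), −0.049 to 1.17 (H2-M3), −0.46 to 1.21 (H2-Q1), −0.98 to 0.50 (H2-K1), −2.98 to 0.23 (H2-K2), −1.52 to 0.32 (H2-D1), −0.31 to 0.57 (H2-D1), −1.34 to 0.30 (H2-K1), −1.84 to 1.72 (H2-T18) and −1.12 to 0.079 (H2-Q4). Among class II and other H2 probe sets they were −0.88 to 0.97 (H2-Ab1), −0.13 to 1.26 (H2-Pa), −1.40 to 0.56 (H2-DMb2), −0.54 to 1.06 (H2-Oa), −0.31 to 0.51 (H2-Ea), −0.64 to 0.85 (H2-Ke6), −0.67 to 0.31 (H2-DMa), −0.72 to 1.27 (H2-Aa), −0.17 to 0.41 (H2-Eb1) and −0.13 to 0.037 (H2-DMb1), and outside the MHC −0.25 to 0.75 (Il10rb) and −0.51 to 1.02 (Ccl22). Besides these, 6 reversals came from other settings: 0.12 for H2-M10.1 with the mean of probe sets per gene, −0.027 for H2-Ab1 with median centring, −0.10 for H2-Pa with pseudocount 1, −0.15 for H2-Ke6 with the mean of probe sets per gene, −0.33 for H2-D1 with the mean of probe sets per gene and 0.0074 for H2-DMb1 with the deposited scale. No paired analysis was possible because by their replicate labels J and NJ share 1a alone. The number format term does block J 1a with NJ 1a and J 1c with NJ 1d, with the counts given above. With 2 arrays a group, and most members near or below background, small differences were not measurable. Larger ones did not pass either: 1.77 for Cxcr3 and 2.56 for Irf8 each had an adjusted p of 0.999 (limma).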
